A study of Mus musculus with 6 samples.

Results

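The FGF receptor genes Fgfr1, Fgfr2 and Fgfr3 and 6 genes that FGF signalling switches on through the kinase ERK (Etv4, Etv5, Dusp6, Spry1, Spry2 and Spry4) were followed in cells of the mouse cerebral cortex. The 9 genes were chosen by symbol from the 24041 genes of a count table, with results of the same comparison already known, so their differences between groups are described here and not tested. The cells had received plasmids by electroporation, that is, electric pulses, and were sorted by the fluorescent marker GFP. One group of 3 libraries had received GFP with wild-type PRPF6 and the other group of 3 libraries GFP with mutant PRPF6, a protein of the splicing machinery. Both groups thus carry a PRPF6 plasmid, and a higher value with the mutant cannot be told apart from a lower value with the wild-type protein. The sources used here do not give the mutation, the species of the PRPF6 sequence, the promoter of the plasmid, or the strain and age of the mice. The labels do not say whether libraries came from separate animals, so every spread given here may be partly technical. Where 3 values stand together they are replicates 1, 2 and 3, wild-type PRPF6 before mutant PRPF6.

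Fibroblast growth factors (FGFs) bind receptor tyrosine kinases of the FGFR family, which activate RAS, then RAF, MEK and ERK. Active ERK raises transcription of the ETS factors Etv4 and Etv5 and of inhibitors that dampen the same pathway: Sprouty proteins act between receptor and RAF, and Dusp6 removes phosphate from ERK. In the embryonic cortex FGF receptors are found mainly on radial glia, the neural stem cells that line the ventricle, where FGF signalling is known to favour stem cell maintenance and to pattern the cortex.

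Library totals lay between 45115122 and 60600617 expected counts, so 1 count was worth 0.0164 to 0.0228 CPM, the unit of counts scaled to a common library size with TMM factors. These totals exceed the reads per sample that the series' design text gives, and whether both reads of a pair were counted is not stated, so a count may stand for less than 1 fragment. Sox2 and Pax6, defining markers of radial glia, lay at 118 to 234 and 85.0 to 167 CPM, so the labelled tissue's stem cells were represented in every library. Some libraries stood apart. Wild-type replicate 3 held 17170 CPM of red blood cell genes in sum, against 130.7 to 2886 CPM elsewhere, and 1966 CPM of meningeal fibroblast genes, against 76.0 to 272.0 CPM elsewhere. Mutant replicate 1 had the lowest level of the intermediate progenitor gene Eomes, at 20.6 CPM against 97.4 to 202 CPM, and of the neuronal gene Neurod6, at 57.5 CPM against 583 to 1275 CPM. It had the highest level of the oligodendrocyte lineage gene Olig2, at 97.3 CPM against 6.79 to 39.98 CPM. Microglia genes summed to 839.0 CPM in mutant replicate 2 and to 34.4 to 307 CPM elsewhere.

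Of the 9 genes, 8 had a higher fitted mean with mutant PRPF6 and 1, Spry2, a lower one. A higher fitted mean with mutant PRPF6 was found for 49.8% of all 14451 genes tested. In 4 of the 9, Fgfr2, Fgfr3, Etv4 and Etv5, each mutant library lay above each wild-type one, a pattern found in 4.6% of the genes tested, and groups that did not overlap in either direction were found in 9.14%. Nothing is read from these counts, because the contrast was known when the genes were chosen. The median log2 difference was 0.70 over the 9 genes and −0.0013 over all genes tested. After Benjamini-Hochberg adjustment of edgeR's quasi-likelihood test 0 genes of the table passed (0%), the 9 genes included. At an unadjusted p under 0.05 there were 489 genes (3.38%), higher with mutant PRPF6 in 2.18% of all genes and lower in 1.2%. With 1 library left out in turn, 6 to 9 of the 9 genes were higher with mutant PRPF6, and 6 was the count without mutant replicate 1. With wild-type replicate 3 and mutant replicate 1 both left out the count was 7. In these bulk libraries more cells of a type cannot be told apart from more RNA per cell.

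**Figure D1:**
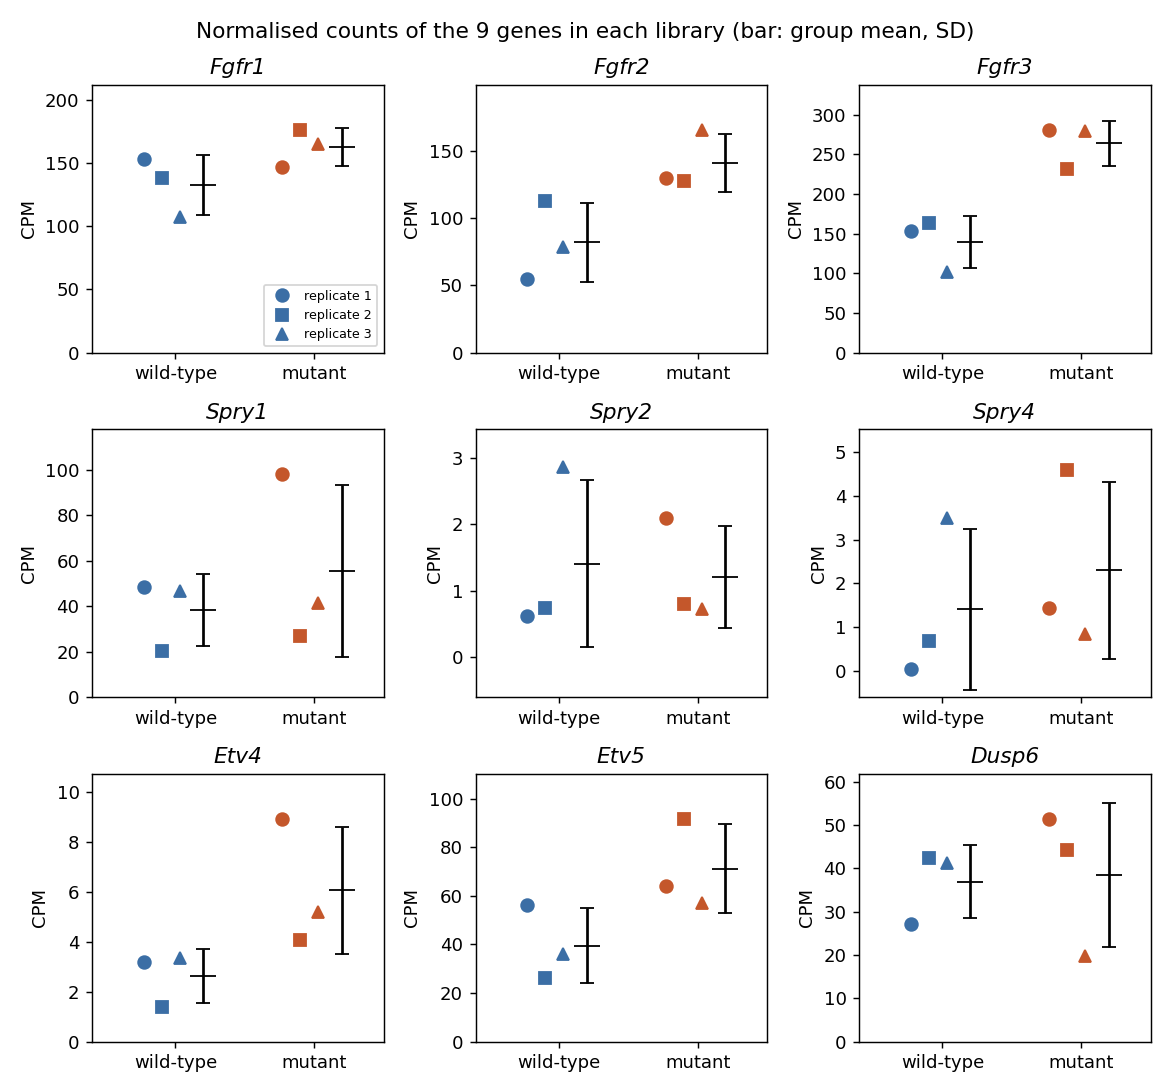
Depth-scaled counts (CPM, vertical axes) of each of the 9 genes in the 3 wild-type and 3 mutant PRPF6 libraries, with markers for the replicate number and a bar for the group mean and SD; vertical axes start at 0, except that those of Spry2 and Spry4 begin below 0. The groups do not overlap for Fgfr2, Fgfr3, Etv4 and Etv5 and overlap for the other 5 genes.

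Fgfr3 (chromosome 5, 33721724 to 33737068, RefSeq on GRCm38.p6), a receptor of ventricular zone progenitors, was at 153.5, 163 and 102 CPM with wild-type and at 281, 231 and 279 CPM with mutant PRPF6. Every mutant library was above every wild-type library, and wild-type replicate 3 was the lowest. Means of 139 ± 32.8 and 264 ± 28.4 CPM (SD, n = 3 each) gave a fitted log2 difference of 0.92 ± 0.20 (SE). It stayed between 0.74, without wild-type replicate 3, and 1.05, without wild-type replicate 2. With wild-type replicate 3 and mutant replicate 1 both left out it was 0.69. The annotation places exons of an unnamed gene model on the opposite strand over 998 bases of Fgfr3 exons, and with no strand setting known the reads of both cannot be separated.

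Fgfr2 (chromosome 7, 130162451 to 130266808), whose isoforms bind different sets of FGFs, was at 54.9, 113 and 78.3 CPM with wild-type and at 130, 128 and 166 CPM with mutant PRPF6. The mutant libraries again lay above the wild-type ones, and wild-type replicate 1 was the lowest. The log2 difference was 0.78 ± 0.27 (SE), and 0.56 without wild-type replicate 1, the lowest library. Fgfr1 (chromosome 8, 25518759 to 25575718), the receptor most widely expressed in the nervous system, was at 153.5, 138 and 107 CPM with wild-type and at 147, 176 and 165 CPM with mutant PRPF6. Here the groups overlapped, since mutant replicate 1 lay below wild-type replicate 1. The log2 difference was 0.29 ± 0.18 (SE), and 0.16 without wild-type replicate 3. In the annotation 164 bases of Fgfr1 exons lie opposite an antisense gene model, and 314 bases of Fgfr2 exons are shared with Ctbp2 on the same strand. The shared bases lie outside the RefSeq coordinates given here, in a longer GENCODE model of Fgfr2 from which its exon length was also taken.

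Divided by exon length, Fgfr3 was the most abundant of the 3 receptors in every library. Divided by coding length, it lay below Fgfr1 in wild-type replicate 3 (39.7 against 40.3 CPM per kilobase). The shares given here rest on exon length. The share of Fgfr3 in the summed receptor level per kilobase was 50.7%, 47.7% and 43.6% with wild-type and 58.9%, 51.6% and 54.3% with mutant PRPF6. The share of Fgfr1 was 36.8%, 29.3% and 33.2% in the wild-type libraries and 22.3%, 28.6% and 23.3% in the mutant ones. Fgfr2 took 12.6% to 23.2% of the receptor level with wild-type and 18.8% to 22.4% with mutant PRPF6, with overlap. The summed level of the 3 receptors was 40.9 ± 7.60 with wild-type and 67.0 ± 4.63 CPM per kilobase with mutant PRPF6 (SD, n = 3 each). The receptor makeup thus held a higher share of Fgfr3 and a lower share of Fgfr1 in each mutant library than in any wild-type library, by margins of less than 1 percentage point between the nearest libraries.

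Etv5 (chromosome 16, 22381313 to 22439570) and Etv4 (chromosome 11, 101769747 to 101785310) encode ETS transcription factors of the PEA3 family that serve as readouts of FGF signalling. Etv5 was at 56.3, 26.0 and 36.2 CPM with wild-type and at 64.2, 91.8 and 57.2 CPM with mutant PRPF6. The groups did not overlap, but wild-type replicate 1 and mutant replicate 3 nearly met. The log2 difference was 0.85 ± 0.32 (SE), and 0.62 when replicate 2 of either group was left out. Etv4 was much lower, at 3.18, 1.39 and 3.36 CPM with wild-type and at 8.93, 4.08 and 5.20 CPM with mutant PRPF6. Mutant replicate 1 was the highest for Etv4, and the log2 difference of 1.199 ± 0.75 (SE) was 0.81 without it.

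Dusp6 (chromosome 10, 99263231 to 99267489), the cytoplasmic phosphatase of ERK, showed no such separation. It was at 27.2, 42.3 and 41.2 CPM with wild-type and at 51.5, 44.2 and 19.7 CPM with mutant PRPF6, so that the mutant libraries held both the highest and the lowest value. Means of 36.9 ± 8.41 and 38.5 ± 16.6 CPM (SD, n = 3 each) gave a fitted log2 difference of 0.062 ± 0.37 (SE). The sign turned in 3 of the 6 fits with 1 library left out, to −0.21 without mutant replicate 1, −0.050 without mutant replicate 2 and −0.12 when wild-type replicate 1 was dropped. Without mutant replicate 3 the difference was 0.37. The interval given by 1 SE on either side includes differences as large as that of Fgfr1, so the data do not show that Dusp6 was equal in both groups.

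Promoter sequences are shown for Fgfr2 and Etv5, whose groups did not overlap, and for Dusp6, whose groups did. Each run covers 250 to 51 bases before a RefSeq start site on GRCm38.p6, 5′ to 3′ on the gene's strand, in windows without annotated exons. Capitals mark the PEA3-type site AGGAAG on either strand. The sequences lie at chr7:130266859-130267058 (minus strand), chr16:22438419-22438618 (minus strand, the second of the Etv5 start sites) and chr10:99262981-99263180 (plus strand).
Fgfr2: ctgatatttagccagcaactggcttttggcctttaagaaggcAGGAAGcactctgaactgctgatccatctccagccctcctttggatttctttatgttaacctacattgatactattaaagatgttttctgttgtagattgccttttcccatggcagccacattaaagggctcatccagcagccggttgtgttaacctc
Etv5: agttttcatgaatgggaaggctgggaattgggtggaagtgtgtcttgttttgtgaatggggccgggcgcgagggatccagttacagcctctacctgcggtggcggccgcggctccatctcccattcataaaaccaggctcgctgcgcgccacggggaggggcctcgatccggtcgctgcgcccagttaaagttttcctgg
Dusp6: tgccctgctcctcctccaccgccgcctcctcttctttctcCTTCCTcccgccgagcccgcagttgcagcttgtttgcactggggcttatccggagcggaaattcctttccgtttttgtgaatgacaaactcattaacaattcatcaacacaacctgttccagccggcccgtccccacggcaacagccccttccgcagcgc

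Fgfr2 held 1 AGGAAG, 208 to 203 bases before the start, and Dusp6 held 1 on the opposite strand, 210 to 205 bases before the start. The shown Etv5 window held none. Over the 32817 promoter windows of 200 bases in the RefSeq table, 23.9% held AGGAAG on either strand. None of the 8 windows of the 6 matched genes (Fgfr2, Fgfr3, Spry1, Spry2, Etv5 and Dusp6) held the longer ETS motif CCGGAAGT, the cAMP response element TGACGTCA or the AP-1 motif TGANTCA, which 1.396%, 0.829% and 5.58% of all windows held. CCGGAAGT and AGGAAG share the letters GGAAG. A match describes the letters only. Fgfr1, Spry4 and Etv4 were not matched.

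Sprouty proteins are induced by ERK and restrain receptor signalling. Spry1 (chromosome 3, 37639947 to 37644599) had the highest level of the Sprouty genes. It was at 48.5, 20.2 and 46.7 CPM with wild-type and at 98.1, 26.8 and 41.6 CPM with mutant PRPF6. Mutant replicate 1 lay far above every other library, and the remaining mutant libraries lay within the range of the wild-type ones. The log2 difference was 0.53 ± 0.51 (SE), and it turned to −0.17 without mutant replicate 1. The annotation holds an unnamed gene model on the opposite strand over 710 bases of Spry1 exons.

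Spry2 (chromosome 14, 105891947 to 105896819) rested on 29, 45 and 143 expected counts with wild-type and on 122, 40 and 32 with mutant PRPF6. That gave 0.623, 0.738 and 2.86 CPM with wild-type and 2.10, 0.803 and 0.730 CPM with mutant PRPF6, with 1 high library in each group. The log2 difference was −0.21 ± 1.29 (SE), and without wild-type replicate 3 it was 0.83. The libraries with high Spry2, wild-type replicate 3 and mutant replicate 1, were also the highest in the interneuron list (998 and 832 CPM in sum, against 171 to 488 CPM elsewhere). They were likewise the highest in the oligodendrocyte precursor list (81.0 and 187 CPM, against 13.8 to 66.9 CPM elsewhere). These lists were picked after the values were seen, and their part in the Spry2 values was not tested.

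Spry4 (chromosome 18, 38586247 to 38601347) rested on 2, 42 and 175 expected counts with wild-type and on 84, 229 and 37 with mutant PRPF6, or 0.0429, 0.689 and 3.50 CPM and 1.45, 4.599 and 0.844 CPM. The groups overlapped, with wild-type replicate 3 above 2 of the 3 mutant libraries and the other wild-type libraries below all of them. The log2 difference of 0.70 ± 1.54 (SE) was −0.30 without mutant replicate 2, and it was 2.64 when wild-type replicate 3 was left out. Both libraries with high Spry4 were also the ones with the most endothelial RNA. The 8 endothelial markers summed to 151 CPM in wild-type replicate 3 and 61.8 CPM in mutant replicate 2, against 0.773 to 6.13 CPM elsewhere. Cldn5, the tight junction gene that defines endothelium, was at 25.3 and 6.11 CPM there, against 0.103 to 0.274 CPM elsewhere. Both libraries were the highest in the meningeal fibroblast list as well (1966 and 272 CPM in sum, against 76.0 to 203 CPM elsewhere). These lists were picked after the values were seen, and their part in the Spry4 values was not tested.

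**Figure D2:**
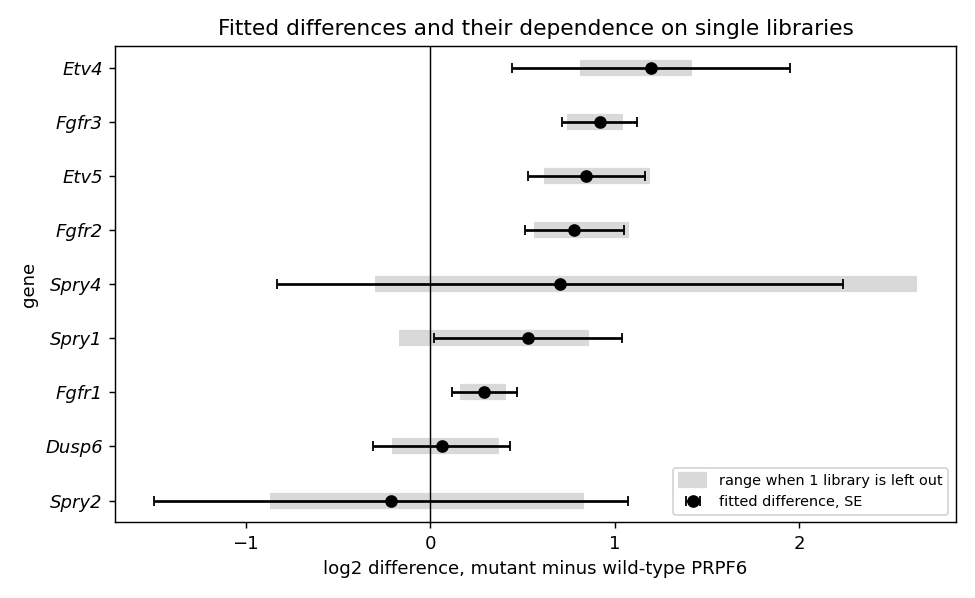
Fitted log2 difference, mutant minus wild-type PRPF6, for each of the 9 genes (horizontal axis, log2 units; points with SE) and the range of the difference when 1 library at a time is left out (grey). For Fgfr1, Fgfr2, Fgfr3, Etv4 and Etv5 the grey range stays above 0, while for Dusp6, Spry1, Spry2 and Spry4 it crosses 0.

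The 9 genes also differed in how far libraries of the same group lay apart, a measure that does not depend on the contrast. The pooled within-group SD of log2 CPM was smallest for Fgfr1, at 0.21, and 0.28 for Fgfr3, 0.40 for Fgfr2, 0.47 for Etv5, 0.58 for Dusp6 and 0.64 for Etv4. It was 0.84 for Spry1, 1.01 for Spry2 and 2.12 for Spry4. Low genes vary more through counting alone, so each was set beside the genes whose mean lay within 1 log2 unit of its own. Spry1 varied more than 96.7% of 4914 such genes, Dusp6 more than 85.9%, Fgfr2 more than 82.5% and Etv5 more than 81.5%. Fgfr3 varied more than 70.1%, Spry4 more than 50.8%, Fgfr1 more than 41.2%, Etv4 more than 28.9% and Spry2 more than 21.4% of theirs. The SD itself was at most 0.40 for the receptors and at least 0.47 for the targets of ERK. Beside genes of like level, receptors and targets were not separated, since Fgfr2 stood next to Etv5 and Dusp6.

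Levels of different genes were compared per kilobase of exon. Over the 6 libraries Fgfr3 was the highest, at 28.2 ± 10.2 CPM per kilobase (SD, n = 6), and it lay above the next gene, Spry1, in 5 of 6 libraries. Spry1 (16.2 ± 9.45), Fgfr1 (15.0 ± 2.44), Etv5 (13.5 ± 5.60), Dusp6 (12.03 ± 3.77) and Fgfr2 (10.8 ± 3.84) followed within their spread of each other. Spry1 was above Fgfr1 in only 3 of 6 libraries, and Etv5 above Dusp6 in 3. Etv4 was far below, at 1.403 ± 0.826, lower than Fgfr2 in all 6 libraries. Spry2 (0.627 ± 0.450) and Spry4 (0.390 ± 0.377) were the lowest. Per kilobase of coding sequence the mean of Fgfr3 remained first, and it lay above Fgfr1 in 5 of 6 libraries. Fgfr1 passed Spry1, Fgfr2 passed Etv5 and Dusp6, and Spry4 passed Spry2.

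Because FGF receptors are found on radial glia, the 9 genes were set beside 28 radial glia markers that include none of them. All 28 markers had a higher fitted mean with mutant PRPF6 (median log2 difference 0.60, range 0.048 to 1.603). In CPM, 7 of them had each mutant library above each wild-type one, beside 4.6% of all genes tested, and 0 had each below. With wild-type replicate 3 and mutant replicate 1 both left out, 26 of 28 were higher (median 0.36). The list stood at −0.29, −0.014 and −0.65 log2 units around its 6-library mean with wild-type and at 0.45, 0.17 and 0.33 with mutant PRPF6. Its genes summed to 3758 to 5587 CPM with wild-type and to 5986 to 8043 CPM with mutant PRPF6, and 0 of them were at 0 in any library. Of the postmitotic neuron genes 17 of 18 were lower (median −0.69, or −0.46 with 15 of 18 lower when both libraries were left out), and they summed to 6997 to 11400 and 4267 to 6999 CPM. How much of the difference in the 9 genes goes with the share of radial glia was not tested.

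After the mean log2 CPM of the radial glia list was subtracted in each library, 5 of the 9 genes were higher and 4 lower with mutant PRPF6. Fgfr3 was at 0.56, 0.38 and 0.33 log2 units relative to the list with wild-type and at 0.70, 0.69 and 0.81 with mutant PRPF6, still without overlap. Its means were 0.42 ± 0.12 and 0.74 ± 0.066 (SD, n = 3 each). Fgfr1 differed in the opposite direction, with means of 0.37 ± 0.22 and 0.042 ± 0.27, as did Dusp6, with −1.49 ± 0.48 and −2.15 ± 0.74, both with groups that overlapped. Etv5 was at −1.44 ± 0.73 and −1.18 ± 0.47 and Fgfr2 at −0.37 ± 0.48 and −0.17 ± 0.24, each with groups that overlapped. Etv4, at −5.35 ± 0.98 and −4.77 ± 0.45, overlapped too. Of the 4 genes without overlap in CPM, only Fgfr3 thus stayed without overlap. Its fitted log2 difference of 0.92 lay within the range of the radial glia markers. Fgfr3 was also chosen with this contrast known, so nothing is read from its lack of overlap. Relative to the list, the median of the 9 differences was 0.20, below the spread between libraries. It turned to −0.072 when wild-type replicate 1 was left out and to −0.16 when wild-type replicate 2 was.

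**Figure D3:**
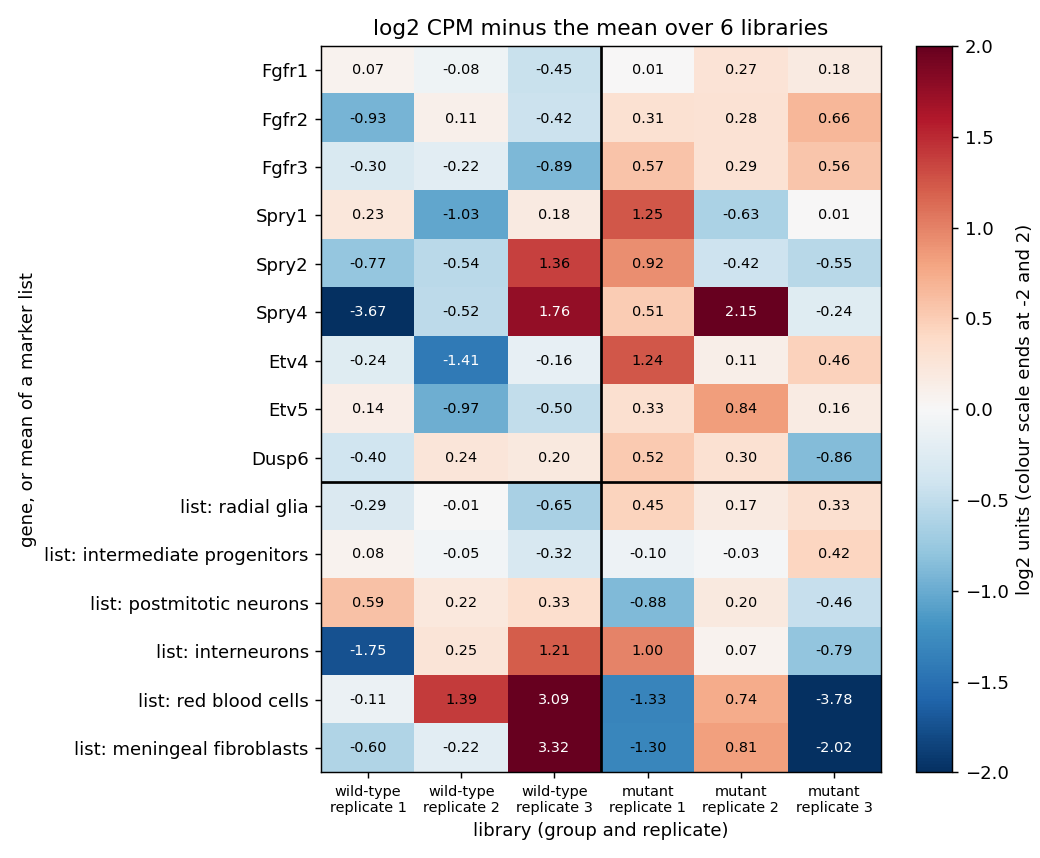
log2 CPM of the 9 genes (upper rows) and mean log2 CPM of 6 marker lists (lower rows), each minus its mean over the 6 libraries (columns); the colour scale ends at −2 and 2 and the numbers give the values. Fgfr3 is above its mean in the 3 mutant libraries and below it in the 3 wild-type ones, as is the radial glia list, while Spry2 and Spry4 vary within both groups.

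The rest of the pathway was described through 8 lists with 103 genes outside the 9, of which 102 were in the table and 87 passed the filter on low counts. Of these 87 genes, 33 were higher and 54 lower with mutant PRPF6 (median log2 difference −0.17). In edgeR's quasi-likelihood test 0 passed after Benjamini-Hochberg adjustment over all genes in either direction (0% of all genes passed), and 0 had an unadjusted p under 0.05, against 3.38% of all genes tested. DESeq2 and limma-voom also passed 0 of them, although DESeq2 gave no adjusted p for 63 of the 87. At an unadjusted p under 0.05 DESeq2 gave 1 (4.44% of all genes), Il17rd, an inhibitor of FGF signalling, and limma-voom 2 (3.81% of all genes), Flrt2 and Phlda1. These 3 are named because the counts are small, after their values were seen. Without mutant replicate 2 the count at an unadjusted p under 0.05 was 11 of 89, beside 6.86% of all genes in that fit, with 0 past adjustment.

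Among FGF ligands 11 of 18 genes did not pass the filter, and 4 of them (Fgf4, Fgf6, Fgf20 and Fgf21) were at 0 counts in all libraries. Fgf15, the ligand with the highest level, was at 46.0, 60.9 and 46.6 CPM with wild-type and at 289, 40.6 and 55.9 CPM with mutant PRPF6. Its log2 difference was 1.33 ± 0.67 (SE), and −0.085 without mutant replicate 1, which lay far above all other libraries. Fgf10 was likewise at 7.11 CPM in mutant replicate 1 and at 0 to 0.579 CPM elsewhere. Mutant replicate 1 was also the highest library for Etv4, Spry1, Dusp6 and Fgfr3, and the lowest for none of the 9 genes. Mutant replicate 2, the library with the lowest Fgf15, was the highest for 3 of the 9 genes and likewise the lowest for none. The part of Fgf15 in the values of the 9 genes was not tested.

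Co-receptors and partners were split, 8 higher and 8 lower of 16 tested (median log2 difference −0.0095). Flrt1 and Flrt2, membrane proteins that bind FGF receptors, had the smallest unadjusted p. They were at 27.4 ± 15.5 and 13.2 ± 7.18 CPM and at 42.8 ± 14.4 and 20.5 ± 20.4 CPM (SD over 3 libraries), with overlap in both. Adaptors and RAS genes were lower in 10 of 13, with small differences (median −0.20). Hras, a RAS protein that relays the receptor signal, was at 88.7 ± 7.36 and 75.9 ± 6.86 CPM (SD over 3 libraries), with overlap.

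Genes for the kinases below RAS were lower in 7 and higher in 4 of 11 (median −0.097). Map2k1, which encodes the ERK-activating kinase MEK1, was at 60.3 ± 5.48 and 72.8 ± 3.63 CPM, with every mutant library above every wild-type one. Rps6ka3, a kinase that ERK activates, was at 13.96 ± 4.47 and 7.28 ± 2.49 CPM (SD over 3 libraries). Of the genes of all 8 lists, 1 had all mutant libraries above and 5 had all below, out of 87, beside 4.6% and 4.54% of all genes tested. Among those below were Fgf8, Ksr1, Rasa1 and Phlda1, named after their values were seen.

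Inhibitors other than Sprouty genes and Dusp6 were higher in 5 and lower in 7 of 12 (median −0.061). Spred1, a Sprouty-related inhibitor of RAS activation, was at 57.6, 85.1 and 66.6 CPM with wild-type and at 141, 99.7 and 69.2 CPM with mutant PRPF6. Rasa1, a RAS GTPase-activating protein, was at 202 ± 30.6 and 154 ± 30.1 CPM (SD, n = 3 each). The other ETS factors and repressors were higher in 6 of 11 (median 0.085). Elk1, an ETS factor phosphorylated by ERK, was at 36.3 ± 6.80 and 48.5 ± 15.1 CPM, and Erf, an ETS repressor, at 1.78 ± 0.692 and 4.35 ± 1.86 CPM.

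Early genes that respond to ERK among other signals were lower in 11 of 13 tested (median log2 difference −0.49), opposite in sign to Etv4 and Etv5. The list stood between −0.076 and 1.03 log2 units around its mean in the wild-type libraries and between −1.41 and 0.80 in the mutant libraries, so the groups overlapped. The median moved to −0.13 when wild-type replicate 3 was left out and to −0.97 when mutant replicate 2 was. Phlda1 was at 24.4, 23.0 and 41.0 CPM with wild-type and at 7.43, 21.4 and 18.2 CPM with mutant PRPF6, and Myc at 42.5 ± 9.82 and 30.3 ± 2.33 CPM. The 4 intracellular FGF homologous factors, which share the fold of FGFs but do not act through the receptors, were 2 higher and 2 lower. Fgf12 was at 3.12 ± 3.47 and 2.14 ± 0.554 CPM and Fgf14 at 3.53 ± 0.977 and 2.67 ± 1.35 CPM (SD over 3 libraries).

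**Figure D4:**
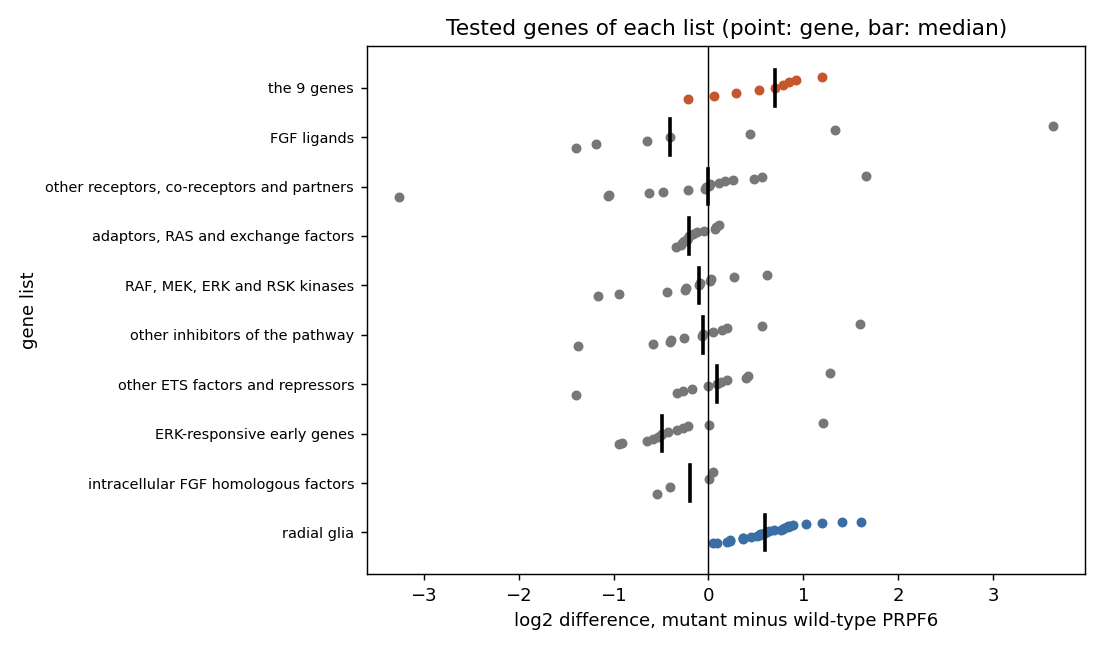
Fitted log2 difference, mutant minus wild-type PRPF6 (horizontal axis), for every tested gene (points) of the 9 genes, of the 8 lists of other FGF-ERK genes and of the radial glia list, with the median of each list as a black bar. The median is 0.70 for the 9 genes and 0.60 for radial glia genes, and between −0.49 and 0.085 for the other lists.

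The genes whose profile over the 6 libraries was most like the mean profile of the 9 genes were sought among the 11920 genes whose log2 CPM averaged 1 or more. Likeness was the root mean square distance between log2 CPM profiles, each centred on its own mean. The mean profile gave each of the 9 genes the same weight, so Spry4, with the widest spread, moved it most. Spry4 stood at −3.67 log2 units in wild-type replicate 1, on 2 counts, and at 2.155 in mutant replicate 2. The mean profile was at −0.65 and 0.36 in these libraries. Neighbours of a mean profile without Spry4 were not sought. The 8 nearest were Rin2, Mon1a, Tro, Obsl1, Paqr4, Slc31a2, Epb4.1 and Gucd1, at distances of 0.117 to 0.147 log2 units, against a median of 0.564 over all. The 9 genes lay at distances from their own mean profile, to which each contributes, of 0.451 for Fgfr2 and 0.487 for Fgfr1 to 0.636 for Spry1, 0.659 for Spry2 and 1.59 for Spry4. Of the 9, 6 lay nearer to it than the median gene and the 3 Sprouty genes lay farther.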

How the data were processed

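Messenger RNA of 6 libraries (3 per group) was measured. Per the series' design text, sorted GFP-positive cells gave picogram amounts of RNA for low-input SMART-Seq cDNA, and libraries shared a sequencing lane. The authors deposited expected counts for each gene, and the submitters' processing notes name RSEM and mm10. The sources used here do not give its version, the aligner, the annotation or the strand setting. Groups and replicate numbers came from the sample titles. Expected counts were rounded, filtered with filterByExpr (14451 of 24041 genes left), scaled with TMM factors and tested with edgeR 4.0.16 (robust quasi-likelihood, two-sided, group as the only term, R 4.3.3), with Benjamini-Hochberg adjustment over all genes at a threshold of 0.05. The log2 CPM values used a prior count of 2. Coordinates and promoters are RefSeq's on GRCm38.p6, and exon and coding lengths GENCODE M21's, by symbol.

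The 9 genes and all gene lists were chosen with earlier results of these data known. Named genes are the 9, the 2 genes of smallest unadjusted p in each pathway list, the 8 nearest profiles and defining markers; 1 gene that the rule names is not reported here. Of the other marker lists, cortical identity genes were higher in 3 of 5 with mutant PRPF6, intermediate progenitor genes in 11 of 14, astrocyte genes (Fgfr3 among them) in 4 of 5 tested, oligodendrocyte precursor genes in 3 of 4, interneuron genes in 4 of 7, red blood cell genes in 0 of 13, meningeal genes in 2 of 13 and endothelial genes in 0 of 4. Microglia genes were higher in 8 of 9, but in 0 of 9 without mutant replicate 2. Other counts turned with 1 library too. Without wild-type replicate 3, endothelial genes were higher in 4 of 4 and interneuron genes in 7 of 7, while red blood cell genes stayed at 0 of 13. Without mutant replicate 1, interneuron genes were higher in 0 of 7 and oligodendrocyte precursor genes in 1 of 4. Alternatives were other scaling factors, filters and tests (DESeq2 1.42.0, limma-voom with limma 3.58.1), a block for the replicate number, counts not rounded, and leaving out libraries. The edgeR steps were tested on simulated data.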

Additional observations from a re-analysis of the deposited data

How the results depend on the processing

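Over the 6 fits with 1 library left out, the count of the 9 genes higher with mutant PRPF6 ran from 6 to 9. Genes with each mutant library above each wild-type one numbered 4 to 5 of the 9, beside 8.21% to 10.9% of all genes in those fits. Differences of Fgfr1, Fgfr2, Fgfr3, Etv4 and Etv5 kept their sign in all alternatives run. The sign of Dusp6 turned without wild-type replicate 1 (−0.12), mutant replicate 1 (−0.21) or mutant replicate 2 (−0.050) and with a replicate block (−0.020). Dusp6 reached 0.37 without mutant replicate 3. Spry1 turned without mutant replicate 1 (−0.17; highest 0.86, without mutant replicate 2), and Spry4 without mutant replicate 2 (−0.30). Spry2 turned without wild-type replicate 3 (0.83), mutant replicate 2 (0.010) or mutant replicate 3 (0.048) and with limma-voom (0.040), was lowest without mutant replicate 1 (−0.87), and did not pass the filter of 1 CPM in 3 libraries. Wild-type replicate 3 and mutant replicate 1 were also both left out, chosen after seeing the data. Spry1 was then at −0.0034, Spry2 at 0.18, Spry4 at 2.89 and Dusp6 at −0.11. In that setting each mutant library lay above each wild-type one for 6 of the 9 genes, beside 15.4% of all genes. Lack of overlap in the other direction was not counted in the fits with libraries left out. The causes were not tested.

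DESeq2 called 10 genes, Fgfr3 among them (log2 difference 0.92, adjusted p = 0.0284), but it gave no adjusted p for 11213 genes. Without that independent filtering, added after seeing the data, it called 5, and Fgfr3 had an adjusted p of 0.0586. Since Fgfr3 was chosen with this contrast known, neither p is independent evidence. Whether libraries of the same replicate number were paired is not known. The sample descriptions use the same numbers in both groups and do not say what they mark. Deviations of same-numbered libraries correlated at 0.054, 0.061 and −0.26 across genes. Over all pairs of a wild-type and a mutant library the correlations ran from −0.256 to 0.257, so they cannot decide this. With the replicate block 0 genes were called, 307 had an unadjusted p under 0.05, and 7 of the 9 genes were higher. Spry2 and Spry4 had the fewest counts of the 9 genes, 2 to 229 in a library, and the part of depth in their spread was not tested.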
